A study of Danio rerio with 12 samples.

Results

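The comparison described here is that of macrophages and microglia sorted from zebrafish eyes 4 days after injury (4 dpi), with the retinal pigment epithelium (RPE) ablated or intact. The members are 6 of the 12 libraries of the study: 3 from ablated eyes, whose labels carry MTZ+, and 3 from unablated eyes, labelled MTZ-. Libraries were assigned by their labels, with no measured value used. Ablated larvae had 10 mM metronidazole for 24 h, between 5 and 6 days post-fertilisation (dpf), in a genetic ablation system. Unablated larvae had no metronidazole, so effects of the drug and of the ablation cannot be told apart. Larvae of both conditions were kept in phenylthiourea, which blocks pigment formation, between 0.25 and 5 dpf. The labels of these 6 libraries name neither the transgenes behind the ablation and the mCherry reporter nor the larval age at collection. Some titles among the other libraries of the study do carry an age in dpf. Each library was made from at most 1000 mCherry-positive cells of enucleated, dissociated eyes, by full-length amplification of cDNA. The labels do not state that the 3 libraries of a condition came from separate pools of larvae, so the p-values below reflect spread among these libraries only, and part of it may be technical.

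The RPE is the pigmented layer behind the photoreceptors. It takes up shed outer segments and regenerates the visual chromophore, and larval zebrafish can rebuild it after loss. Macrophages clear dead cells and debris at an injury, and they can multiply locally, release inflammatory signals, and later produce factors that act on matrix and repair. Microglia are the resident macrophages of the retina and brain. In bulk RNA from a sort, fewer cells of a type and less RNA per cell cannot be told apart.

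Libraries held 31730109 to 35258088 counts from ablated eyes and 20778047 to 32585600 from unablated eyes, with 16991 to 18626 and 17888 to 18794 genes detected. Levels below are in CPM, counts scaled to library sizes that the TMM method adjusts, given for replicates 1, 2 and 3 in that order. A gene is called, and is said to have risen or fallen, where edgeR's quasi-likelihood test gave an adjusted p under 0.05 over all genes tested. Macrophage markers were abundant in every library. mpeg1.1, a macrophage perforin, stood at 2558, 1747 and 2390 CPM in ablated and 2511, 2425 and 3073 CPM in unablated eyes, and the groups overlapped. The leukocyte actin regulators lcp1 and coro1a were at 1857 CPM or more in all 6 libraries. Among defining markers of other blood and vessel cells, lyz, zap70, hbaa1 and kdrl were at 0 to 13 counts in each library, but others were detected. npsn, a neutrophil protease, gave 1553, 439 and 46 counts in ablated and 808, 450 and 302 counts in unablated eyes. The embryonic globins hbae3 and hbbe1.1 summed to 983 and 562 counts in ablated eyes and to 0 in unablated eyes, but neither passed the filter for testing. Erythrocyte genes together stood at 46.5, 44.1 and 132.7 CPM in ablated and 59.3, 25.1 and 37.2 CPM in unablated eyes. Ablated replicate 3 was thus the highest, and the groups overlapped.

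Ablated replicate 2 stood apart. On the first principal component, which held 47.6% of the variance, ablated replicates 1 and 3 were at 180.6 and 152.4, ablated replicate 2 was at -59.4, and the unablated libraries were between -143.5 and -17.3. Photoreceptor genes made up 4.21% of its counts, against 0.0608% and 0.0515% in the other ablated libraries and 0.0797% to 0.797% in the unablated ones. Without it, 1420 of 17071 genes were called (8.32%). With it, 605 of 16313 were called (3.71%), of which 567 were called again without it. The counts below are of all 6 libraries unless the omission is named. The calls rested on the other ablated libraries as well, since 0 genes were called without ablated replicate 1 (2727 at an unadjusted p under 0.05) and 0 without ablated replicate 3 (2509 at an unadjusted p under 0.05). Without unablated replicate 1, 2 or 3, 5, 38 and 24 genes were called. All 605 kept their direction in each of these 6 omissions. Their groups did not overlap, so omission of a single library could hardly have turned a direction.

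At 4 dpi 298 genes rose (1.83% of those tested) and 307 fell (1.88%), as the plot of fold change against p shows. Over all 16313 genes the median log2 fold change, ablated over unablated, was -0.04. Of these genes 47.35% had a positive value, and 3371 were at an unadjusted edgeR p under 0.05. None of the 605 called genes had overlapping groups, and 30.5% of all genes tested also had groups that did not overlap. DESeq2 called 2319 genes (14.2%), with 7.18% of genes tested higher and 7.04% lower, and all 605 were among them. The called genes that rose had a median log2 fold change of 1.38 and those that fell one of -2.20.

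**Figure D1:**
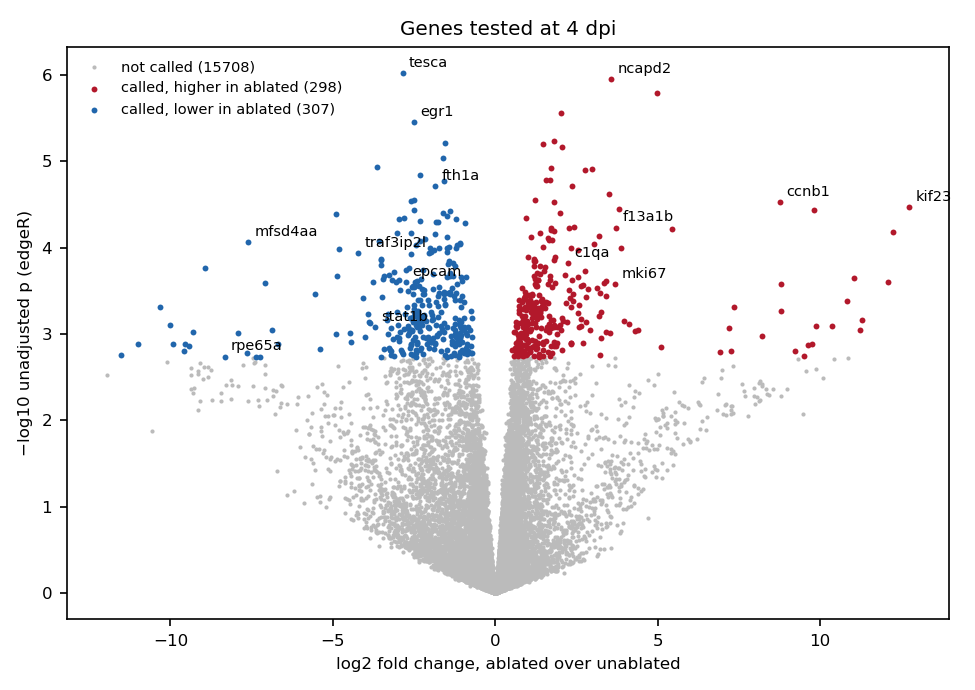
Each point is 1 of the 16313 genes tested at 4 dpi, placed by its log2 fold change (ablated over unablated, horizontal) and the −log10 of its unadjusted edgeR p (vertical); red marks the 298 genes that rose, blue the 307 that fell. Cell cycle genes such as kif23, ccnb1 and ncapd2 lie far to the right, and egr1, fth1a, epcam and rpe65a lie on the left.

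Mitosis genes had the highest median log2 fold change of the 37 lists. Of 91 mitosis genes found, 89 were tested, 20 rose (22.5%, against 1.83% of all genes) and 0 fell. A positive log2 fold change was found for 88 of the 89, against 47.35% of all genes, and the list's median was 3.83. The median is the same when genes at 0 in a group are set to a bound of 3 counts per library. Groups did not overlap for 83 of the 89, against 30.5% of all genes tested in either direction. Without ablated replicate 2, 29 rose and 0 fell, where 3.5% of all genes rose. Ablated replicate 2 had the lowest summed level of the list among ablated eyes (2391 CPM, against 3935 and 4241 CPM), still above the 622.8 to 889.0 CPM of unablated eyes.

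kif23 (ENSDARG00000014943, GRCz11 chromosome 18, 20435821 to 20458840, minus strand), a kinesin of the central spindle needed for cytokinesis, stood at 37.4, 16.4 and 28.4 CPM in ablated eyes and gave 0 counts in all 3 unablated libraries. Its level was at least 261-fold higher in ablated eyes over a floor of 3 counts per library (edgeR adjusted p = 0.0193). aspm, which organises spindle poles, gave 1767 counts in ablated and 0 in unablated eyes, at least 167-fold higher. kif14, another cytokinesis kinesin, gave 857 and 0 counts, at least 81.0-fold higher. haus4, an augmin subunit that nucleates spindle microtubules, had 1389 counts in ablated eyes and 1 in unablated eyes, a ratio of 1182 (95% exact interval 211.8 to 46720, counting error only). These spindle genes were close to absent from unablated eyes and present in every ablated library. Of 31 spindle and cytokinesis genes tested, 6 rose (19.35%, against 1.83% of all genes) and 0 fell, and all 31 had positive values.

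Among mitotic cyclins and kinases, 5 of 18 rose (27.78%, against 1.83% of all genes) and 0 fell. ccnb1, the cyclin that drives entry into mitosis, stood at 40.4, 12.7 and 32.9 CPM in ablated eyes and at 0.0298, 0.150 and 0.0304 CPM in unablated eyes (edgeR adjusted p = 0.0188). ccna2, the cyclin of S phase and G2, stood at 45.1, 32.3 and 62.8 CPM in ablated and 0.686, 4.24 and 3.22 CPM in unablated eyes. Neither gene's groups overlapped, and both were lowest among ablated eyes in replicate 2. Some well-known members did not pass the test although their groups did not overlap, and they are named after their values were seen. cdk1, the kinase partner of these cyclins, stood at 136, 56.0 and 132 CPM in ablated and 0.0895, 7.53 and 2.07 CPM in unablated eyes (log2 fold change 5.08, SE 1.40, adjusted p = 0.113 by edgeR). plk1, a mitotic kinase, had a log2 fold change of 5.05 (SE 1.56, adjusted p = 0.147 by edgeR).

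Condensins, which compact chromosomes, gave the smallest p. ncapd2 (ENSDARG00000005058, chromosome 2, 44749201 to 44777679) stood at 36.3, 34.8 and 36.6 CPM in ablated and 2.83, 3.04 and 3.19 CPM in unablated eyes, with little spread in either (log2 fold change 3.57, SE 0.21, adjusted p = 0.00872 by edgeR). ncaph, the kleisin subunit of the same complex, gave 1952 and 0 counts, at least 184.6-fold higher in ablated eyes. The proliferation antigen mki67 stood at 73.0, 45.2 and 74.4 CPM in ablated and 1.97, 6.13 and 6.87 CPM in unablated eyes (log2 fold change 3.69, SE 0.52, adjusted p = 0.0286 by edgeR). Of the 12 condensin and chromosome structure genes 6 rose, as did 3 of 28 kinetochore genes, among them spc25 of the microtubule-binding Ndc80 complex (18.5 ± 4.44 CPM in ablated and 0.428 ± 0.236 CPM in unablated eyes, SD, n = 3 each).

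**Figure D2:**
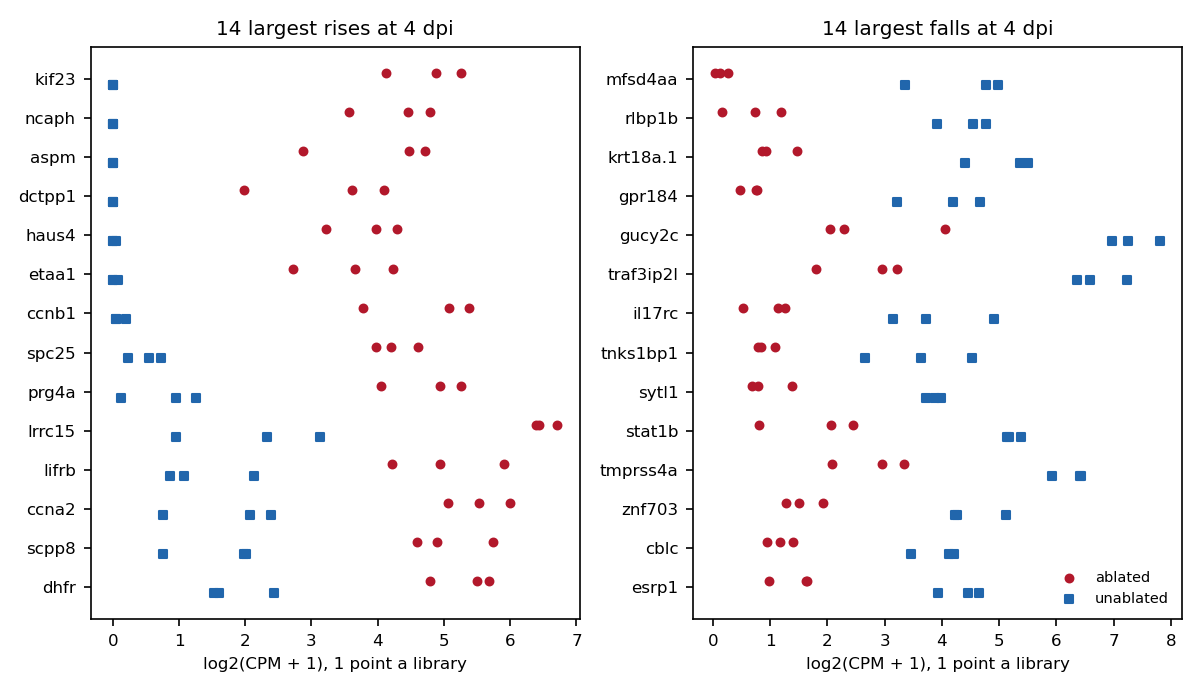
Level in each library at 4 dpi, as log2(CPM + 1) on the horizontal axis, of the 14 largest rises (left) and 14 largest falls (right) among named genes; red circles are ablated and blue squares unablated libraries. No gene shown has overlapping groups, which the choice of genes required, and kif23, ncaph, aspm and dctpp1 sit at 0 in all 3 unablated libraries.

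DNA replication was the list with the largest share of members that rose. All 63 found were tested, 23 rose (36.5%, against 1.83% of all genes) and 0 fell. Positive values were found for 62, and the median log2 fold change was 2.1. Without ablated replicate 2, 26 rose and 0 fell, where 3.5% of all genes rose. The summed level was 3094, 2705 and 3308 CPM in ablated and 468.8, 838.5 and 918.9 CPM in unablated eyes, so the groups were far apart in every library. By role, 5 of 8 genes of deoxynucleotide supply rose (median 3.67), 12 of 24 polymerase and clamp genes (median 2.00), 4 of 22 licensing and helicase genes (median 1.80) and 2 of 9 chromatin assembly genes (median 2.24).

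rrm1 (ENSDARG00000014017, chromosome 21, 30772043 to 30787414), the large subunit of ribonucleotide reductase, stood at 136.7, 96.8 and 125.1 CPM in ablated and 14.8, 19.1 and 11.22 CPM in unablated eyes (log2 fold change 2.99, SE 0.25, adjusted p = 0.0146 by edgeR). dhfr, which supplies reduced folate for thymidylate synthesis, stood at 44.0, 26.6 and 50.1 CPM in ablated and 2.03, 4.39 and 1.89 CPM in unablated eyes. dctpp1, which clears modified deoxycytidine triphosphate, gave 1020 counts in ablated and 0 in unablated eyes, at least 96.5-fold higher. Nucleotide supply genes were thus the replication genes with the highest median. pcna, the sliding clamp, stood at 436, 352 and 466 CPM in ablated and 33.0, 81.8 and 96.2 CPM in unablated eyes (log2 fold change 2.57, SE 0.40, adjusted p = 0.0321 by edgeR). rpa1, which coats single-stranded DNA, averaged 170.7 ± 17.5 CPM in ablated and 53.4 ± 6.16 CPM in unablated eyes (SD, n = 3 each). orc5 of the origin recognition complex averaged 31.7 ± 5.93 CPM in ablated and 3.85 ± 1.3 CPM in unablated eyes (SD, n = 3 each).

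Of 16 genes of repair by recombination, 3 rose (18.8%, against 1.83% of all genes) and 0 fell (median 2.49, 15 positive). They were etaa1, which activates the ATR checkpoint kinase at stalled forks, palb2, the partner of Brca2, and fancd2 of the Fanconi pathway. palb2 gave 243 counts in ablated and 0 in unablated eyes, at least 23.0-fold higher, but was not called without ablated replicate 2 (edgeR adjusted p = 0.0618), and fancd2 gave 449 and 3. In the list of cell cycle control 2 of 38 tested rose (5.26%, against 1.83% of all genes) and 1 fell (2.63%, against 1.88%). The list's median was 0.63. cdk2, the kinase of S phase entry, averaged 54.7 ± 12.1 CPM in ablated and 11.3 ± 3.88 CPM in unablated eyes (SD, n = 3 each), and tfdp1b, a partner of E2F factors, also rose. btg2, which restrains proliferation and responds early to stimuli, stood at 20.01, 47.0 and 50.1 CPM in ablated and 133, 171 and 143 CPM in unablated eyes and fell. The 14 cell cycle inhibitors tested had a median of -0.38. Of 39 p53 pathway genes 0 rose and 1 fell (2.56%, against 1.88% of all genes), and the median was -0.14. The gene that fell was sat1a.1, which acetylates polyamines (log2 fold change -3.25, SE 0.44, adjusted p = 0.0284 by edgeR).

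Genes of the nuclear envelope were looked at after their values were seen. Of 8, 4 rose, where 1.83% of all genes rose. They were the B-type lamins lmnb1 and lmnb2, the lamin B receptor lbr, and banf1, which links chromatin to the envelope. lmna, the A-type lamin, had a value in the other direction without passing the test (log2 fold change -3.12, edgeR adjusted p = 0.0560), with groups that did not overlap. lmnb2 lost its call without ablated replicate 2 (edgeR adjusted p = 0.0549). lbr stood at 140.9, 106.7 and 165.4 CPM in ablated and 43.8, 35.9 and 54.2 CPM in unablated eyes. Of 15 tubulin and stathmin genes tested 3 rose and 0 fell (median 0.47): tubb2b, tuba1b and tuba8l. tubb2b averaged 1311 ± 238.3 CPM in ablated and 568.3 ± 27.1 CPM in unablated eyes (SD, n = 3 each). The chromatin proteins hmgn2, hmgb2a and hmga1a were among the most abundant genes that rose. hmga1a stood at 850, 648 and 970 CPM in ablated and 262, 314 and 312 CPM in unablated eyes, and its groups were well apart.

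**Figure D3:**
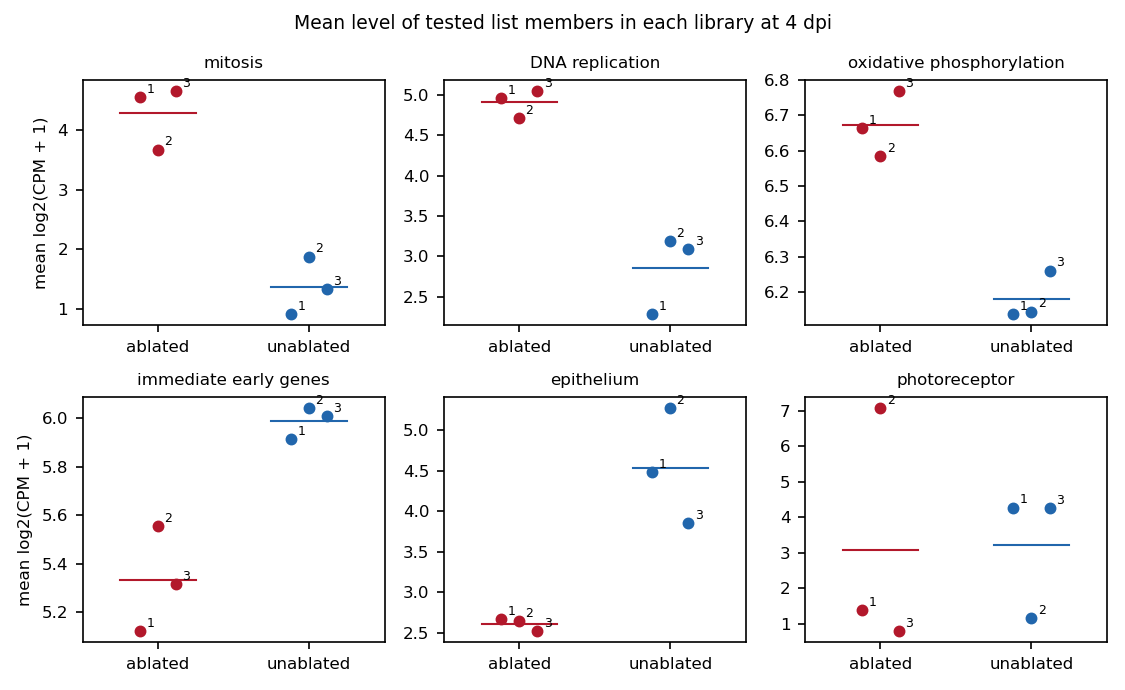
Mean log2(CPM + 1) over the tested members of 6 gene lists in each library at 4 dpi (vertical axes do not start at 0 and differ between panels); points are libraries, numbered by replicate, with ablated eyes at left and unablated at right, and lines are means of 3. Mitosis, DNA replication and oxidative phosphorylation are higher, and immediate early genes and epithelium lower, in all 3 ablated libraries; for photoreceptor genes, ablated replicate 2 lies above all others.

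Genes of mitochondrial respiration had smaller and more uniform positive values. Of 103 nuclear genes of oxidative phosphorylation found, 100 were tested, 15 rose and 0 fell. Positive values were found for 96 of the 100, against 47.35% of all genes, and the list's median was 0.51. Without ablated replicate 2, 47 of 102 rose and 0 fell, where 3.5% of all genes rose. Members rose in complex I (5 of 47, 10.64%), complexes II and III (2 of 18, 11.11%), complex IV (3 of 17, 17.65%) and ATP synthase (5 of 18, 27.78%). cyc1, the cytochrome c1 of complex III, stood at 376.7, 364.1 and 348.9 CPM in ablated and 218.2, 216.0 and 183.3 CPM in unablated eyes (log2 fold change 0.82, SE 0.12, adjusted p = 0.0290 by edgeR). atp5mc1, a ring subunit of ATP synthase, stood at 462, 398 and 572 CPM in ablated and 217, 232 and 251 CPM in unablated eyes. Both genes, like all genes that rose, were higher in every ablated than in any unablated library.

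The 13 genes encoded by mitochondrial DNA had a median of 0.27, and 0 were called by edgeR. At an unadjusted edgeR p under 0.05 there were 7, against 3371 of all 16313 genes. DESeq2 called 6 higher, against 7.18% of all genes. mt-atp6 stood at 1376 ± 46.1 CPM in ablated and 995.3 ± 67.1 CPM in unablated eyes (SD, n = 3 each) without passing the test (edgeR adjusted p = 0.0560). Of 74 genes of the mitochondrial ribosome, grouped after their values were seen, all 74 had positive values (median 0.59), against 47.35% of all genes. In this group 3 rose (mrpl16, mrpl34 and mrpl53), where 1.83% of all genes rose. Of 16 enzymes of the TCA cycle, also grouped afterwards, 2 rose, where 1.83% of all genes rose. They were the succinyl-CoA ligase subunits suclg1 and sucla2.

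In glycolysis and the pentose phosphate pathway 5 of 44 genes tested rose (11.4%, against 1.83% of all genes) and 0 fell. The list's median was 0.21 with all libraries and -0.04 without ablated replicate 2. Those that rose were hk2 (hexokinase), gpia, pgam1a, and the pentose phosphate enzymes pgd and taldo1. pgd stood at 713, 624 and 704 CPM in ablated and 305, 351 and 407 CPM in unablated eyes (log2 fold change 0.94, SE 0.14, adjusted p = 0.0301 by edgeR). hk2 stood at 77.1, 71.2 and 60.3 CPM in ablated and 25.7, 29.9 and 35.8 CPM in unablated eyes.

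Against 47.35% of all genes, all 36 proteasome genes had positive values, with a median of 0.65. Of them 3 rose (8.33%, against 1.83% of all genes), namely psmb7, psmd3 and psmd1. psmb7, a catalytic subunit, averaged 297.6 ± 38.7 CPM in ablated and 157.0 ± 10.7 CPM in unablated eyes (SD, n = 3 each). Without ablated replicate 2, 15 proteasome genes rose and 0 fell, where 3.5% of all genes rose. Of 54 heat shock and chaperone genes tested 7 rose (12.96%, against 1.83% of all genes) and 1 fell (1.85%, against 1.88%). The list's median was 0.34. The mitochondrial chaperonin pair hspd1 and hspe1 rose, as did the disulfide isomerases pdia4 and pdia6 and the chaperone hspa5 of the endoplasmic reticulum. ddit3, a factor of the unfolded protein response, fell (45.7 ± 5.13 CPM in ablated and 88.6 ± 7.39 CPM in unablated eyes, SD, n = 3 each). fkbp5, a co-chaperone of steroid receptors, stood at 399, 565 and 210 CPM in ablated and 99.7, 123 and 99.1 CPM in unablated eyes.

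Ribosome genes had mostly positive values. Of 93 ribosome biogenesis genes 0 were called by edgeR. At an unadjusted edgeR p under 0.05 there were 28, against 3371 of all 16313 genes. DESeq2 called 11 higher, against 7.18% of all genes. Positive values were found for 81 of the 93, against 47.35% of all genes, and the list's median was 0.39. Of 94 cytosolic ribosomal protein genes 1 rose (1.06%, against 1.83% of all genes) and 0 fell (median 0.14). It was rpl22l1, a paralog of rpl22, at 123.1 ± 17.9 CPM in ablated and 66.2 ± 3.08 CPM in unablated eyes (SD, n = 3 each).

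**Figure D4:**
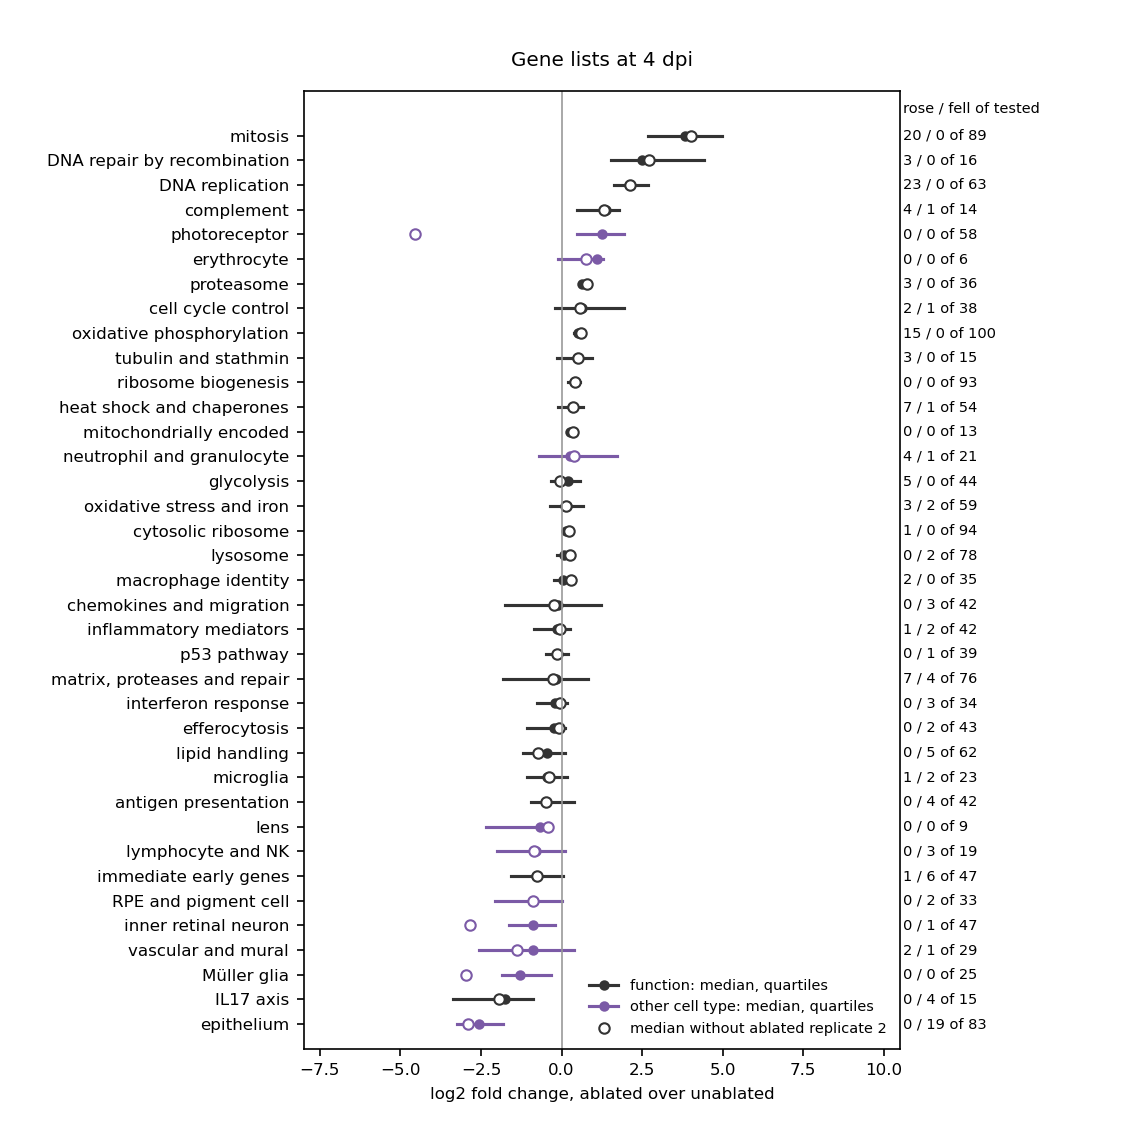
Median log2 fold change (ablated over unablated, filled circles) with quartiles (lines) of the tested members of 37 gene lists at 4 dpi, with the median without ablated replicate 2 as open circles; lists of functions are black and lists of other cell types purple, and numbers at right give members that rose, fell and were tested. Mitosis lies at the top with 3.83 and epithelium at the bottom with -2.57, and the photoreceptor median is 1.26 with all libraries and -4.55 without ablated replicate 2.

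General macrophage genes went both ways. Of 35 identity genes 2 rose (5.71%, against 1.83% of all genes) and 0 fell. Positive values were found for 18 and negative values for 17, and the median was 0.04. Groups did not overlap for 10 that were higher and 5 that were lower in ablated eyes, against 30.5% of all genes in either direction. DESeq2 called 8 higher and 4 lower, against 7.18% and 7.04% of all genes. mfap4 (ENSDARG00000090783, chromosome 1, 59090583 to 59092056), widely used as a zebrafish macrophage marker, stood at 1680, 1293 and 1600 CPM in ablated and 432.1, 678.6 and 516.3 CPM in unablated eyes (log2 fold change 1.49, SE 0.20, adjusted p = 0.0281 by edgeR). The 3 other MFAP4 genes tested rose too, with log2 fold changes of 1.15, 1.56 and 1.76; these copies are alike, and reads may be shared between them. cebpa, a myeloid transcription factor, rose by less (1406 ± 42.3 CPM in ablated and 976.0 ± 75.4 CPM in unablated eyes, SD, n = 3 each). csf1ra, the receptor of colony stimulating factor 1, overlapped between the groups, with a log2 fold change of -0.02 (SE 0.27, adjusted p = 0.984 by edgeR).

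Of 23 microglial genes tested 1 rose (4.35%, against 1.83% of all genes) and 2 fell (8.70%, against 1.88%), with a median of -0.46. Without ablated replicate 2, 3 of 23 rose and 6 fell, against 3.5% and 4.82% of all genes. DESeq2 with all libraries called 2 higher and 8 lower, against 7.18% and 7.04% of all genes. p2ry12, a purinergic receptor of microglia, overlapped between the groups (log2 fold change 0.14, SE 0.27, adjusted p = 0.842 by edgeR), and so did apoeb, the lipid carrier abundant in microglia (-0.46, SE 0.29, adjusted p = 0.454). The chemokine ccl34b.1 stood at 3497, 2340 and 4049 CPM in ablated and 6562, 9854 and 8725 CPM in unablated eyes, and fell. bhlhe41, a transcription factor, also fell (234.5 ± 32.2 CPM in ablated and 542.0 ± 53.7 CPM in unablated eyes, SD, n = 3 each). grna, a progranulin, rose. The abundant surface enzyme entpd1, which breaks down extracellular ATP, and ptpn6, a phosphatase that limits immune receptor signalling, rose as well. ptpn6 stood at 1464 ± 186.8 CPM in ablated and 851.1 ± 105.4 CPM in unablated eyes (SD, n = 3 each).

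Most complement genes tested had positive values. Of 29 found, 14 were tested, 4 rose (28.6%, against 1.83% of all genes) and 1 fell (7.14%, against 1.88%). Of the values 12 were positive and 2 negative, and the median was 1.39. c1qa (ENSDARG00000044613, chromosome 21, 22721957 to 22724980), a chain of C1q, which binds dying cells and immune complexes, stood at 126.0, 76.3 and 139.5 CPM in ablated and 23.2, 18.9 and 29.7 CPM in unablated eyes (log2 fold change 2.25, SE 0.29, adjusted p = 0.0254 by edgeR). The other C1q chains, c1qb and c1qc, rose by 1.57 and 1.36 on the log2 scale. cfp, properdin, which stabilises the alternative pathway convertase, stood at 395.3, 402.0 and 508.2 CPM in ablated and 92.9, 137.9 and 138.2 CPM in unablated eyes. All 3 C1q chains and properdin, like all genes that rose, were higher in every ablated than in any unablated library. itgam, a chain of complement receptor 3, fell to 8.28, 21.6 and 12.2 CPM in ablated eyes, against 77.0, 77.0 and 66.1 CPM in unablated eyes.

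Among matrix, protease and repair genes a few rose strongly while most were not called. Of 100 found, 76 were tested, 7 rose (9.21%, against 1.83% of all genes) and 4 fell (5.26%, against 1.88%). The median was -0.18. f13a1b (ENSDARG00000036893, chromosome 7, 8267985 to 8344243), the transglutaminase subunit of factor XIII that cross-links fibrin and matrix, stood at 866.6, 1082 and 852.1 CPM in ablated and 93.1, 33.97 and 85.8 CPM in unablated eyes (log2 fold change 3.72, SE 0.41, adjusted p = 0.0205 by edgeR). tgfbi, a matrix protein induced by TGF-beta in mammals, stood at 211.6, 284.1 and 250.2 CPM in ablated and 67.8, 25.1 and 48.5 CPM in unablated eyes. lrrc15, a surface protein with leucine-rich repeats, stood at 85.4, 82.7 and 103.7 CPM in ablated and 7.78, 0.948 and 4.04 CPM in unablated eyes. For f13a1b and tgfbi, ablated replicate 2 was the highest library of all.

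prg4a, a lubricin, averaged 27.4 ± 10.99 CPM in ablated and 0.810 ± 0.664 CPM in unablated eyes (SD, n = 3 each). s100a10b, an annexin partner, and adam9, a membrane protease, also rose. cd9b, a tetraspanin, fell (72.5 ± 21.7 CPM in ablated and 272.8 ± 38.7 CPM in unablated eyes, SD, n = 3 each). The collagen col6a1 and the growth factor igf2a gave 0 counts in ablated and 437 and 758 counts in unablated eyes, at least 57.1-fold and 99.0-fold lower in ablated eyes. lifrb, a receptor of the LIF cytokine family, was among the largest rises of named genes (17.6, 29.6 and 59.0 CPM in ablated and 3.4, 1.097 and 0.821 CPM in unablated eyes). Membrane genes of the ms4a17a cluster, grouped after their values were seen, had 4 of 12 that rose (1.83% over all genes) and 0 that fell. ms4a17a.11 stood at 82.0, 79.9 and 86.1 CPM in ablated and 35.13, 33.6 and 26.9 CPM in unablated eyes. Reads may be shared among these genes too.

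Of 42 inflammatory mediators tested 1 rose (2.38%, against 1.83% of all genes) and 2 fell (4.76%, against 1.88%), with a median of -0.13. il1b stood at 44.1, 30.3 and 40.0 CPM in ablated and 64.0, 52.2 and 77.4 CPM in unablated eyes without passing the test (log2 fold change -0.76, SE 0.22, adjusted p = 0.110 by edgeR). tnfa was low in all libraries, at 0.658 to 1.93 CPM in ablated and 1.22 to 3.29 CPM in unablated eyes. myd88, the adaptor of Toll-like receptors, fell (61.1 ± 12.6 CPM in ablated and 126.1 ± 8.28 CPM in unablated eyes, SD, n = 3 each), while tlr5a, a flagellin receptor, rose.

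Enzymes of prostaglandin and leukotriene metabolism, grouped after their values were seen, split. ptgs2b, an inducible cyclooxygenase, stood at 19.98, 55.6 and 41.5 CPM in ablated and 207.0, 304.3 and 171.7 CPM in unablated eyes and fell (log2 fold change -2.54, SE 0.42, adjusted p = 0.0352 by edgeR). ltc4s, which makes leukotriene C4, fell as well. lta4h, which makes leukotriene B4, stood at 731.8, 517.2 and 548.2 CPM in ablated and 200.3, 247.9 and 266.9 CPM in unablated eyes and rose. ptgr1 and ptges3b of this group, whose roles differ from that of lta4h, rose too. The median of the 14 tested was -0.65.

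Immediate early genes respond within minutes to stimulation and also to tissue dissociation. Of 53 found, 47 were tested, 1 rose (2.13%, against 1.83% of all genes) and 6 fell (12.8%, against 1.88%). Negative values were found for 35 of the 47, and the median was -0.81. egr1 (ENSDARG00000037421, chromosome 14, 21332522 to 21336385), a zinc finger factor, stood at 305.0, 291.8 and 295.7 CPM in ablated and 1324, 1717 and 2047 CPM in unablated eyes (log2 fold change -2.51, SE 0.18, adjusted p = 0.0115 by edgeR). ier2a stood at 350, 317 and 504 CPM in ablated and 952, 1082 and 1449 CPM in unablated eyes. dusp2, a phosphatase of MAP kinases, stood at 42.5, 113 and 46.3 CPM in ablated and 423, 544 and 567 CPM in unablated eyes. All 3 genes, like all genes that fell, were lower in every ablated than in any unablated library. dusp5, btg2 and ier2b fell too, and klf2a rose (101.5 ± 30.1 CPM in ablated and 33.9 ± 7.32 CPM in unablated eyes, SD, n = 3 each). fosab had a log2 fold change of -1.2 (SE 0.32) and was not called (edgeR adjusted p = 0.0902; named after its value was seen).

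Of 42 chemokine and migration genes tested 0 rose and 3 fell (7.14%, against 1.88% of all genes), with a median of -0.11. They were ccl34b.1, and the ligand and receptor pair ccl20a.3 and ccr6a. Without ablated replicate 2, 2 of 46 rose and 5 fell, against 3.5% and 4.82% of all genes. DESeq2 with all libraries called 9 higher and 9 lower, against 7.18% and 7.04% of all genes. Of 34 interferon response genes tested 0 rose and 3 fell (8.82%, against 1.88% of all genes), with a median of -0.22. Those that fell were the signalling factors tyk2, irf7 and stat1b. stat1b (ENSDARG00000076182, chromosome 9, 41218967 to 41247197), a transcription factor activated by interferon receptors, stood at 0.761, 4.49 and 3.19 CPM in ablated and 35.13, 40.9 and 34.1 CPM in unablated eyes (log2 fold change -3.70, SE 0.64, adjusted p = 0.0371 by edgeR). The 16 interferon effectors tested had a median of 0.03, and 0 were called by edgeR. At an unadjusted edgeR p under 0.05 there were 2, against 3371 of all 16313 genes. DESeq2 called 1 lower, against 7.04% of all genes. The factors and the effectors of the list thus had different medians, a difference that was not tested.

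Of 42 antigen presentation genes tested 0 rose and 4 fell (9.52%, against 1.88% of all genes), with a median of -0.47. batf3 and id2a, factors of dendritic cell development in mammals, fell, as did psmb12, an immunoproteasome subunit, and the class I gene mhc1uka. mhc1uka was not called without ablated replicate 2 (edgeR adjusted p = 0.0521). In the whole list without that library, 3 of 43 rose and 5 fell, against 3.5% and 4.82% of all genes. DESeq2 with all libraries called 5 higher and 11 lower, against 7.18% and 7.04% of all genes. batf3 stood at 6.20, 7.81 and 3.95 CPM in ablated and 22.2, 27.3 and 35.6 CPM in unablated eyes. psmb12 stood at 1.70, 4.58 and 4.01 CPM in ablated and 19.9, 20.1 and 23.7 CPM in unablated eyes. Receptor genes of the dicp and pigrl immunoglobulin families, grouped after their values were seen and possibly sharing reads, had 2 of 7 and 3 of 5 tested that fell and 0 that rose. Over all genes tested, 1.88% fell.

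Genes of uptake and digestion had medians near 0. Of 43 efferocytosis genes tested 0 rose and 2 fell (4.65%, against 1.88% of all genes), with a median of -0.23. They were mfge8b, a bridge between dying cells and phagocytes, at 31.0, 27.8 and 15.8 CPM in ablated and 122, 80.6 and 77.7 CPM in unablated eyes, and anxa5b, which binds exposed phosphatidylserine. Of 78 lysosome genes tested 0 rose and 2 fell (2.56%, against 1.88% of all genes), with a median of 0.08. Those that fell were gm2a, the activator of ganglioside breakdown, and the acid phosphatase acp5a. Without ablated replicate 2, 8 of 78 rose and 3 fell (median 0.26), against 3.5% and 4.82% of all genes. DESeq2 with all libraries called 6 lysosome genes higher and 4 lower, against 7.18% and 7.04% of all genes. gm2a averaged 448.4 ± 21.8 CPM in ablated and 849.6 ± 36.8 CPM in unablated eyes (SD, n = 3 each).

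Of 62 lipid handling genes tested 0 rose and 5 fell (8.1%, against 1.88% of all genes), with a median of -0.46. insig1 (ENSDARG00000010658, chromosome 7, 41007773 to 41014773), which holds sterol regulatory proteins in the endoplasmic reticulum, stood at 49.3, 29.2 and 50.1 CPM in ablated and 183.3, 241.4 and 221.7 CPM in unablated eyes (log2 fold change -2.33, SE 0.25, adjusted p = 0.0198 by edgeR). srebf2, the factor that drives sterol synthesis, fell by 1.08 on the log2 scale and lost the call without ablated replicate 2 (edgeR adjusted p = 0.0602). cpt1ab, the gate of fatty acid oxidation, stood at 22.1, 26.4 and 24.5 CPM in ablated and 63.5, 64.1 and 65.0 CPM in unablated eyes. pltp, a phospholipid transfer protein, and mgll, a lipase, fell as well.

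In the list of oxidative stress and iron 3 of 59 tested rose (5.1%, against 1.83% of all genes) and 2 fell (3.39%, against 1.88%). The median was 0.18. fth1a (ENSDARG00000015551, chromosome 7, 12927944 to 12936708), a ferritin heavy chain that stores iron, stood at 241.3, 364.0 and 286.7 CPM in ablated and 1088, 1115 and 1012 CPM in unablated eyes (log2 fold change -1.85, SE 0.17, adjusted p = 0.0160 by edgeR). sod2, the mitochondrial superoxide dismutase, and gsto2, a glutathione transferase, were among those that rose. ncf1, a subunit of the phagocyte NADPH oxidase, averaged 347.9 ± 28.1 CPM in ablated and 569.0 ± 43.2 CPM in unablated eyes (SD, n = 3 each) and fell.

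Epithelium and the interleukin-17 pathway were the lists with the lowest median log2 fold changes over all 6 libraries. Of 101 epithelial genes found, 83 were tested, 0 rose and 19 fell (22.9%, against 1.88% of all genes). Negative values were found for 77 of the 83, and the median was -2.57. Groups did not overlap downward for 49 of the 83, against 30.5% of all genes tested in either direction. Without ablated replicate 2, 29 fell and 0 rose, where 4.82% of all genes fell. The share of all counts from the list was 0.494%, 0.561% and 0.409% in ablated and 1.36%, 1.53% and 0.919% in unablated eyes. epcam (ENSDARG00000040534, chromosome 13, 8840772 to 8843363) encodes an adhesion protein of epithelia that metaphocytes, mpeg1-positive cells of zebrafish skin, also carry. It stood at 95.7, 267.4 and 143.9 CPM in ablated and 1005, 1234 and 1139 CPM in unablated eyes (log2 fold change -2.74, SE 0.38, adjusted p = 0.0286 by edgeR).

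By role, 13 of 44 adhesion and junction genes fell (median -2.47), 2 of 12 epithelial transcription factors (-2.37), 1 of 15 keratins (-3.11) and 3 of 12 secretory genes (-2.54). Over all genes tested, 1.88% fell. The membrane protease st14a and its inhibitor spint1a fell together, st14a at 11.23, 17.6 and 9.81 CPM in ablated and 77.9, 76.1 and 81.3 CPM in unablated eyes. krt18a.1, a simple keratin, stood at 1.78, 0.898 and 0.821 CPM in ablated and 40.4, 20.3 and 44.5 CPM in unablated eyes. esrp1 and esrp2, splicing factors of epithelial cells, both fell. krt4, a skin keratin, was uneven, at 174.7, 24.7 and 47.4 CPM in ablated and 409.3, 1453 and 97.3 CPM in unablated eyes, and was not called (edgeR adjusted p = 0.245). The groups overlapped for krt4, while epcam and cdh1 were lower in every ablated library.

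gucy2c, a guanylate cyclase receptor of gut epithelium in mammals, stood at 3.89, 15.5 and 3.13 CPM in ablated and 223, 151 and 124 CPM in unablated eyes. pou2f3 and trpm5, which mark chemosensory epithelial cells in mammals and were paired after their values were seen, fell by 2.76 and 2.69 on the log2 scale. pou2f3 stood at 12.5, 32.9 and 13.6 CPM in ablated and 138.9, 167.0 and 95.1 CPM in unablated eyes.

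Of 15 interleukin-17 pathway genes tested 0 rose and 4 fell (26.7%, against 1.88% of all genes), with a median of -1.77. traf3ip2l (ENSDARG00000091734, chromosome 6, 36877968 to 36901130), an adaptor of interleukin-17 receptors, stood at 2.49, 8.29 and 6.72 CPM in ablated and 150.1, 94.8 and 81.6 CPM in unablated eyes (log2 fold change -4.22, SE 0.52, adjusted p = 0.0222 by edgeR). il17rc, a receptor chain, stood at 1.199, 0.449 and 1.4 CPM in ablated and 7.87, 29.2 and 12.3 CPM in unablated eyes. ccr6a and its ligand gene ccl20a.3 fell with them; ccr6a stood at 14.7, 24.8 and 16.1 CPM in ablated and 50.8, 67.4 and 71.8 CPM in unablated eyes. The epithelial list moved the same way in the same libraries, and its part in these falls, and in those of the antigen presentation and interferon genes, was not tested.

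Genes of the RPE, the ablated tissue, had negative values. rpe65a (ENSDARG00000007480, chromosome 2, 1428696 to 1443692), the visual cycle isomerase of the RPE, gave 0, 1 and 0 counts in ablated and 203, 13 and 223 counts in unablated eyes. It fell with all libraries (edgeR adjusted p = 0.0498) and was not called without ablated replicate 2 (0.0529). rlbp1b, which carries the visual chromophore, stood at 0.117, 1.29 and 0.668 CPM in ablated and 22.3, 14.02 and 26.2 CPM in unablated eyes and fell. All 16 RPE genes tested had negative values (median -1.68) and 2 fell (12.5%, against 1.88% of all genes). Their summed level was 144.3, 234.4 and 122.5 CPM in ablated and 320.8, 239.4 and 283.0 CPM in unablated eyes, so the second ablated and the second unablated library were close. The whole list of RPE and other pigment cells had 33 tested of 57 found. Of these 0 rose and 2 fell (6.06%, against 1.88% of all genes), with a median of -0.87. The 8 melanin synthesis genes tested had a median of -0.10, and their summed level of 2477, 1774 and 2631 CPM in ablated and 1883, 2580 and 2209 CPM in unablated eyes overlapped.

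Photoreceptor reads followed single libraries. rho, rod opsin, gave 0, 642720 and 106 counts in ablated and 163, 1683 and 143017 counts in unablated eyes. Of 58 photoreceptor genes tested 0 were called by edgeR (0 at an unadjusted p under 0.05, and 0 by DESeq2), and the median of 1.26 was -4.55 without ablated replicate 2. opn1sw2, a blue cone opsin, was at 12.3 and 13.3 CPM in ablated replicates 1 and 3 and at 2179 CPM in replicate 2, against 102.8, 132.5 and 92.7 CPM in unablated eyes. Of 47 inner retinal neuron genes tested 1 fell (tfap2c, 2.13% against 1.88% of all genes) and 0 rose (median -0.89). Of 25 Müller glia genes 0 were called by edgeR, with a median of -1.29. At an unadjusted edgeR p under 0.05 there were 7, against 3371 of all 16313 genes. DESeq2 called 5 lower, against 7.04% of all genes. Without ablated replicate 2, 12 of 52 inner retinal neuron genes tested fell and their median was -2.85. In the same omission 4 of 25 Müller glia genes fell and their median was -2.97, where 4.82% of all genes fell.

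Among neutrophil and granulocyte genes 4 of 21 tested rose (19%, against 1.83% of all genes) and 1 fell (4.76%, against 1.88%). The median was 0.26, and the genes that define neutrophils did not lead. mpx, myeloperoxidase, gave 504, 1 and 29 counts in ablated and 0, 46 and 0 counts in unablated eyes, and lyz gave 13 counts in ablated replicate 2 and 0 elsewhere. Those that rose were il6r and csf3r, cytokine receptors, nccrp1 and s100a10b. nccrp1 stood at 313, 309 and 352 CPM in ablated and 121, 118 and 114 CPM in unablated eyes (log2 fold change 1.46, SE 0.11, adjusted p = 0.0125 by edgeR). il6r stood at 104, 87.0 and 95.6 CPM in ablated and 27.7, 27.6 and 32.2 CPM in unablated eyes.

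Of 19 lymphocyte and NK genes tested, from 54 found, 3 fell (15.8%, against 1.88% of all genes) and 0 rose (median -0.79). Those that fell were runx3, gata3 and cd28. cd28, a T cell costimulatory receptor in mammals, gave 4 counts in ablated and 460 in unablated eyes, while lck, a kinase that defines T cells, gave 23, 0 and 0 counts in ablated and 32, 0 and 250 in unablated eyes. Vascular and mural genes had 2 of 29 that rose (6.90%, against 1.83% of all genes) and 1 that fell (3.45%, against 1.88%). Of the 29, 20 had negative values, and the median was -0.89. Without ablated replicate 2, 3 of 32 rose and 5 fell, against 3.5% and 4.82% of all genes. DESeq2 with all libraries called 3 higher and 7 lower, against 7.18% and 7.04% of all genes. By edgeR with all libraries, the risers were the endothelial receptors robo4 and tek. cdh5, which defines endothelium, gave 0, 189 and 4 counts in ablated and 228, 2 and 126 counts in unablated eyes. robo4 stood at 173, 79.9 and 144 CPM in ablated and 17.2, 30.4 and 31.4 CPM in unablated eyes. pdgfra, a receptor of mesenchymal cells, gave 1 count in ablated and 597 in unablated eyes. Of 6 erythrocyte genes tested 0 were called by edgeR (2 at an unadjusted p under 0.05; 2 higher by DESeq2), with a median of 1.11. Of 9 lens genes tested 0 were called by edgeR, with a median of -0.68. In that list 2 were at an unadjusted edgeR p under 0.05, and DESeq2 called 2 lower. Over all 16313 genes, 3371 were at an unadjusted edgeR p under 0.05, and DESeq2 called 7.18% higher and 7.04% lower.

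The question whether the response at 4 dpi differs from that at 2 dpi was put to all 12 libraries as an interaction. By edgeR 0 of 18079 genes differed (1059 at an unadjusted p under 0.05), and DESeq2 called 80. The smallest adjusted p was that of kif23 (0.0577), whose log2 response was 10.05 higher at 4 dpi (SE 0.93) in a fit that depends on its counts of 0. At 2 dpi itself 0 of 16048 genes were called by edgeR (2691 at an unadjusted p under 0.05). The 2 dpi titles carry 3 dates, each shared by 1 ablated and 1 unablated library, and the 4 dpi titles carry 1 date. With the date as a block, added after seeing the data, 0 genes were called at 2 dpi (3634 at an unadjusted p under 0.05), and 1 gene differed between the times, si:dkey-262j3.7 (edgeR adjusted p = 0.0305; named after its value was seen). Time goes with larval age and with these dates.

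The times share no library, and the genes called at 4 dpi mostly had the same sign at 2 dpi. Of 297 risers tested at 2 dpi, 289 had a positive log2 fold change there, and of 294 genes that fell, 289 had a negative one. Over all genes 45.8% were positive at 2 dpi. Medians of the risers were 1.36 at 2 dpi and 1.38 at 4 dpi, and medians of the genes that fell were -1.54 and -2.20. These genes were chosen by their values at 4 dpi, so the sizes of the medians cannot be compared between the times. The mitosis list had a median of 2.19 at 2 dpi and 3.83 at 4 dpi, and the epithelial adhesion genes had medians of -2.0 at 2 dpi and -2.47 at 4 dpi. prg4a had a log2 fold change of 0.20 at 2 dpi (5.1 at 4 dpi), gsto2 one of -0.34 (1.54 at 4 dpi), and krt18a.1 one of 2.97 (-4.90 at 4 dpi), and none of these differences passed the interaction test (edgeR interaction, adjusted p = 0.811 for each).

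**Figure D5:**
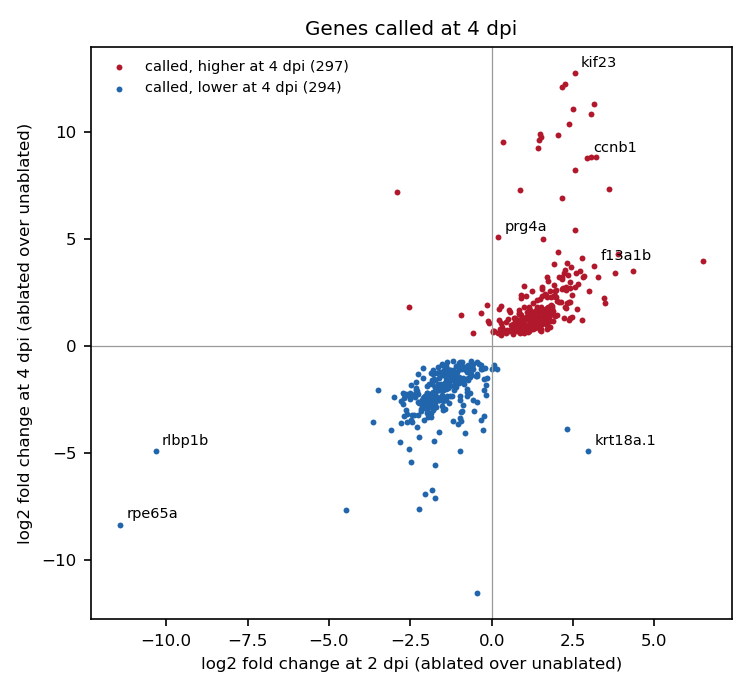
Log2 fold change (ablated over unablated) at 2 dpi (horizontal) and 4 dpi (vertical) of genes called at 4 dpi and tested at both times; red marks 297 genes that rose and blue 294 that fell at 4 dpi. Most points lie at the lower left and upper right, with krt18a.1 an exception; the vertical separation from 0 is fixed by the choice of genes.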

How the data were processed

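Counts per gene and TPM values (scaled for gene length and depth) were deposited by the authors for 25281 genes in 12 libraries, per the file headers; positions and symbols came with them. The submitters' processing notes name GRCz11; the aligner, counter and annotation were not given in the sources used here. The library method does not mark strand, so overlapping genes may share reads, as may near copies. Amplified reads are not independent molecules, so intervals and floors (3 counts per library) cover counting error only.

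The deposited counts of the 6 libraries at 4 dpi were analysed with edgeR 4.0.16 in R 4.3.3 (robust quasi-likelihood, TMM, default expression filter, Benjamini-Hochberg adjustment over all genes tested, threshold 0.05). The difference between the times used all 12 libraries. Standard errors (SE) were derived from the F statistic. Alternatives were DESeq2 1.42.0, its size factors and upper quartile scaling in edgeR, no filter, a strict filter (1 CPM in 3 libraries and a mean of 50 counts), edgeR without robust estimation, limma 3.58.1 (voom, and log2(TPM + 1) from the authors' TPM), all 12 libraries in the fit, a replicate block, and omission of each library. Tested on simulated data for 16313 genes at 4 dpi, the edgeR fit recovered 43 of 100 genes changed by 2 and 61 of 100 changed by 3 on the log2 scale, with 6 false calls. The changed genes were all drawn from those with a mean above 50 counts, so recovery at lower counts was not tested. None of the 6 pairs of libraries within a condition at 4 dpi agreed within sampling noise.

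The members and the 37 gene lists were chosen with earlier results of these data known; of 1761 symbols written, 1645 were found. Named genes were those called, with groups that do not overlap, at least 10 CPM on average in the higher group and a proper gene symbol: the 15 largest changes and the 10 most abundant in each direction (251 rose and 223 fell under these conditions). To these were added up to 6 called members of each list (3 of the smallest p where under 2 were called) and 15 set genes; others are said to be named after their values were seen. Of the genes this rule names, 2 are not reported here.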

Additional observations from a re-analysis of the deposited data

How the results depend on the processing

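At 4 dpi 605 genes were called. Other fits called 640 (DESeq2's size factors), 595 (upper quartile), 583 (no filter), 790 (strict filter) and 540 (no robust estimation), within 1.5 times of that count, and 2319 (DESeq2), 924 (limma voom), 1662 (limma on TPM) and 222 (all 12 libraries, 197 up and 25 down). Omission of single libraries gave 0 to 1420. A block by replicate number called 0 at 4 dpi (2728 at an unadjusted edgeR p under 0.05). The labels do not state that numbers pair libraries, so the numbers were not taken to pair them. After removal of group means same-numbered libraries correlated at -0.18, -0.42 and -0.15. With 3 libraries a group such deviations sum to 0 within each group, so these correlations cannot decide whether the numbers pair libraries. For the difference between the times, 0 by edgeR became 80 (DESeq2), 5 (no filter) and 3 (DESeq2's size factors), was 1 with the date in the titles as a block, stayed 0 with limma voom and with the block by replicate number, and was 0 to 19 over omissions (19 without unablated replicate 2 of 4 dpi). Signs turned for opn1sw2 (-0.58 on TPM, -0.59 with voom, -1.41 with the block, -3.06 to 3.32 over omissions of 1 library), rho (-1.62 on TPM, -3.72 with voom, -6.7 with the block, -9.84 to 7.27 over omissions), opn1mw2 (-3.9 to 10.19 over omissions), rom1a (-2.95 to 9.66 over omissions), csf1ra (0.0060 with the block, -0.16 to 0.33 over omissions), p2ry12 (-0.041 to 0.37 over omissions) and mpx (-0.72 to 10.45 over omissions); none of these 7 genes was called with all libraries, and the cause was not tested. The median of 30 of 37 lists kept its sign in every alternative, and the 7 others were chemokines, erythrocyte, glycolysis, lysosome, macrophage identity, neutrophil and photoreceptor. Scaling changed the sign of 0 list medians. Of 25281 genes, 16313 had counts enough to be tested at 4 dpi. At 2 dpi, where date and replicate number coincide, same-numbered libraries correlated at 0.615, -0.0056 and 0.595. These deviations also sum to 0 within each group of 3, so the correlations cannot decide whether date had an effect. The replicate block by date left the count of calls at 0 at 2 dpi, and both date blocks were added after seeing the data.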
